A study of Homo sapiens with 12 samples.

Results

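Squamous carcinoma lines were set against lung adenocarcinoma lines through their peaks of H3K27ac, acetylation of lysine 27 on histone H3. The squamous side held 2 peak lists, 1 of HCC95, a squamous cell line of the lung, and 1 of BICR31, which the study's design describes as squamous from the head and neck. The adenocarcinoma side held 4 lists, replicates 1 and 2 of H358 and of H2009. All were untreated human cancer cell lines grown in RPMI medium with serum, precipitated with the same antibody, and each line is a single model of its tumour type. The sample label of BICR31 gives lung adenocarcinoma instead, so set sizes, gene counts and windows are also given with BICR31 moved or left out. Overlapping peaks of the 6 lists on chromosomes 1 to 22, of the 12 lists of the series, were merged into 62409 regions. The squamous set is the 3078 regions with a peak in both squamous lists and in no adenocarcinoma list, and the adenocarcinoma set is the 598 regions with a peak in all 4 adenocarcinoma lists and in no squamous list. With BICR31 moved, the squamous rule asks for no BICR31 peak and the adenocarcinoma rule for a BICR31 peak. No region of either set can then stay in it, so values with BICR31 moved describe newly formed sets. The form of the files differed with tumour type: the squamous lists were broadPeak files and the adenocarcinoma lists narrowPeak files. Tumour type and peak calling therefore cannot be told apart in any value below.

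H3K27ac marks promoters and enhancers that are in use, so a peak list is a partial map of the regulatory elements of a cell. Squamous carcinomas keep features of the basal layer of stratified epithelium. They depend on the transcription factors p63 and SOX2 and make basal keratins, desmosomes and hemidesmosomes. Lung adenocarcinomas often keep features of alveolar or secretory cells, under NKX2-1, FOXA1 and FOXA2, with surfactant proteins as classical products.

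Promoters of some of the genes named below are shown first, from RefSeq sequence on the build GRCh38.p14, while all peaks are on hg19. Of 103 genes listed for the 2 tumour types and for controls, 63 had a promoter in that table, cut here to the 250 bases before the start. KRT5 and COL17A1, a basal keratin and a hemidesmosome collagen, had peaks at their starts in both squamous lists and in no adenocarcinoma list. The capitals in their promoters mark a form of the half-site of the p53 family, to which p63 belongs. Its letters are RRRCATGYYY, where R is A or G and Y is C or T, and other forms were not searched. It reads the same class of letters on both strands, it was chosen after the peaks were seen, and 1.28% of all 35116 promoters in the table hold one. Of 20 squamous and basal genes in the table only these 2 hold one. Of 20 adenocarcinoma genes 1 does, KRT8.
KRT5 (chr12:52520395-52520644, - strand): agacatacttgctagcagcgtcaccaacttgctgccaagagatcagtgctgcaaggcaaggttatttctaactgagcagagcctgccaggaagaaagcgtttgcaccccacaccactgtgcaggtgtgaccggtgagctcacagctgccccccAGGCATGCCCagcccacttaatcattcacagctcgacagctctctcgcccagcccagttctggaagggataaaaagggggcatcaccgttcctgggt
COL17A1 (chr10:104085881-104086130, - strand): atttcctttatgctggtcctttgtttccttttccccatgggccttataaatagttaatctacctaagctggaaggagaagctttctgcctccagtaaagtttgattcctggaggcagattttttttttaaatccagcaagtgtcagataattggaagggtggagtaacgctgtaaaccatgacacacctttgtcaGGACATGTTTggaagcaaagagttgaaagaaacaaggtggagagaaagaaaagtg
The first exons of the protocadherin alpha genes, which encode adhesion molecules of neurons, each have their own promoter, and these carried peaks in the adenocarcinoma lists. Of the 13 genes, 11 had a promoter in the table. The longest run of letters found in at least 9 of them was 9 bases long, GATGTCGCT, in capitals below with 30 bases on either side. It stood in 9 of the 11 and, on either strand, in 0.0854% of all promoters. PCDHA1, PCDHA4, PCDHA7 and PCDHA12 had a region of the adenocarcinoma set at their start, and PCDHA6 did not.
PCDHA1 (chr5:140786067-140786135, + strand): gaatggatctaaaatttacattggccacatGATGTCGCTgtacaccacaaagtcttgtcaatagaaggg
PCDHA4 (chr5:140806960-140807028, + strand): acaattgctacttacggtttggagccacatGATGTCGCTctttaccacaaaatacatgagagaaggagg
PCDHA6 (chr5:140827878-140827946, + strand): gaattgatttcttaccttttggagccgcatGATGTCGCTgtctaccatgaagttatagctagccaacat
PCDHA7 (chr5:140834153-140834221, + strand): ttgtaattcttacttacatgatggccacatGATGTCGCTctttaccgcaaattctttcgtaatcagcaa
PCDHA12 (chr5:140875225-140875293, + strand): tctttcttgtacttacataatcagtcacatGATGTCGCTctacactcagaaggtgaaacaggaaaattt
These letters describe the promoters and are not binding sites measured here.

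The lists differed in length and width before any comparison. On the chromosomes used, HCC95 had 22850 peaks, BICR31 had 41161, H358 had 26202 and 26344, and H2009 had 26129 and 25719. Their called bases came to 21.05 Mb in HCC95 and 39.8 Mb in BICR31, against 10.6 to 11.8 Mb in the adenocarcinoma lists. The lowest deposited −log10 q was 1.02 and 1.001 in the squamous lists and 1.31 to 1.34 in the adenocarcinoma lists. As a check of the lists, all 4 listed epithelial genes (CDH1, EPCAM, ESRP1 and GRHL2) had a peak at the start in all 6. So did 16 of 17 housekeeping genes, and also ZEB1 and COL1A1, 2 of the 5 listed mesenchymal genes. These starts thus do not separate the tumour types. No gene of the 14 that mark blood, liver, pancreas, muscle, nerve or vessel cells had a peak at the start in all 6. Of these 14, 9 had none in any of the 6. A peak at the start means here a peak within 5 kb of it.

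Both sets were small beside what the lists shared. The squamous set made up 4.93% of all regions and the adenocarcinoma set 0.958%, while 8970 regions (14.4%) had a peak in all 6 lists. Regions seen in a single list came to 32234 (51.6%), of which BICR31 held 16680 and HCC95 4869. The rule asks for 2 lists on one side and 4 on the other, so the sizes of both sets are not comparable as they stand. With 1 list per line, an alternative added after the data were seen, the squamous set held 3786 or 3892 regions and the adenocarcinoma set 1271 or 1296, for replicate 1 or 2.

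**Figure D1:**
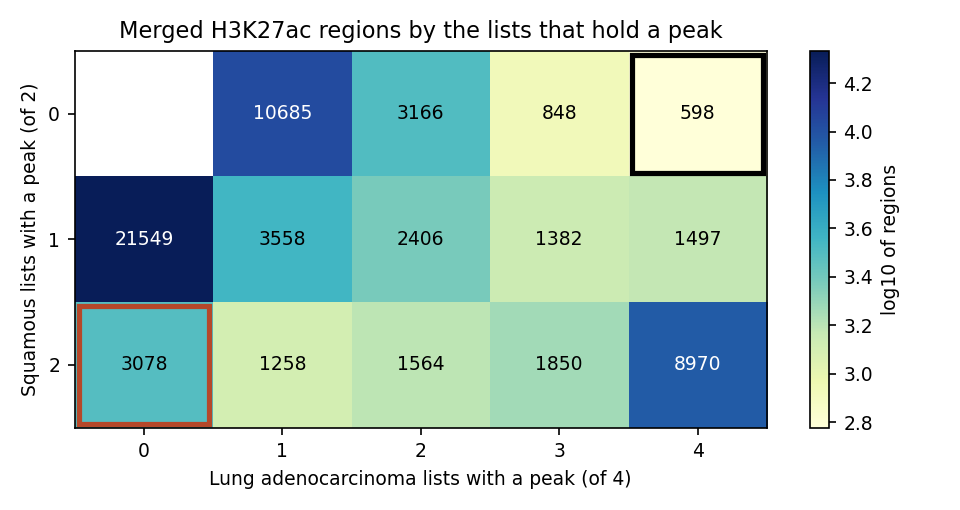
Number of merged regions by how many of the 4 lung adenocarcinoma lists (x axis) and of the 2 squamous lists (y axis) have a peak in them, with colour on a log10 scale. The red frame marks the squamous set of 3078 regions, the black frame the adenocarcinoma set of 598, and the cell at the lower right the 8970 regions found in all 6 lists.

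Many regions lay 1 list away from a set. Both squamous lists and just 1 adenocarcinoma list held 1258 regions, and that list was H2009 replicate 1 in 390, H2009 replicate 2 in 308, H358 replicate 1 in 299 and H358 replicate 2 in 261. No single adenocarcinoma list thus accounted for most of the near misses. On the other side, 848 regions had 3 adenocarcinoma lists and no squamous list, and the missing list was each H2009 replicate in 233, H358 replicate 1 in 195 and H358 replicate 2 in 187. All 4 adenocarcinoma lists and 1 squamous list held 1497 regions. There the squamous lists were unequal: BICR31 was the one with the peak in 1246 and HCC95 in 251.

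The members of each set had lower folds and smaller widths than the common regions, an order that the rule and the merging in part fix. A merged width unites the peaks of all lists, and no adenocarcinoma-set region can hold a broad peak. The fold of a region is that of its highest peak, which favours regions with several peaks. Squamous-set regions had a median width of 1248 bp, adenocarcinoma-set regions 632 bp, and the regions of all 6 lists 1499 bp. In HCC95 the authors' fold enrichment over background had a median of 3.50 in the squamous set and 4.22 in the common regions. In BICR31 the same medians were 3.69 and 4.57. Expressed as a percentile within its own list, the median squamous-set region stood at 32.7 in HCC95 and at 43.5 in BICR31, and the common regions at 69.95 and 79.0. Adenocarcinoma-set regions stood higher within their own lists, at 53.6 to 56.7 over the 4 lists, beside 72.6 to 77.0 for the common regions. Fold values of wide and narrow peaks are not alike, so these percentiles are read only within a list.

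Called bases overlapped more within a tumour type than between types. HCC95 and BICR31 had a base-pair Jaccard index (called bases in both lists over called bases in either) of 0.275. The index was 0.447 between the H358 replicates, 0.407 between the H2009 replicates, and 0.349 to 0.359 between H358 and H2009 lists. Squamous and adenocarcinoma lists reached 0.223 to 0.248 with HCC95 and 0.173 to 0.192 with BICR31. The mean within types exceeded that between types by 0.153, the highest of the 15 ways to place 2 of 6 lists on one side (exact one-sided permutation p = 0.0667, the smallest this design allows). Over the 4 lines the difference was 0.104 (exact one-sided permutation p = 0.333, again the smallest possible). Neither level can reach 0.05.

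The index of the squamous pair changed with peak width. With every peak set to 500 bp around its centre, HCC95 and BICR31 had an index of 0.179, within the 0.171 to 0.180 of HCC95 with the adenocarcinoma lists. H358 with H2009 stayed at 0.310 to 0.317 in that setting. When the lists were also limited to the length of the shortest, an alternative added after the data were seen, the squamous pair had 0.214. HCC95 with the adenocarcinoma lists then had 0.174 to 0.183, and BICR31 with them 0.168 to 0.175. With BICR31 counted as adenocarcinoma, the difference of means fell from 0.153 to 0.0560.

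Some genes of the basal program had peaks at their starts in both squamous lists and in no adenocarcinoma list. Of 31 listed squamous and basal genes, 9 had this pattern, and 11 had a peak at the start in all 6. Over all 10 kb tiles that held a region, 5.89% had the former pattern. Of the 9, KRT5 and BNC1 also had a peak at the start in Ishikawa replicate 1. The 9 genes were KRT5, KRT6A, KRT6B and KRT17 (keratins of basal and activated epithelium), DSG3 (a desmosomal cadherin), COL17A1, TRIM29, BNC1 (a zinc finger factor of basal cells) and BCL11A (a transcription factor known from lung squamous carcinoma). In all, HCC95 and BICR31 each had a peak at 28 of the 31 starts, H358 at 17 and 14, and H2009 at 14 and 15. The Ishikawa lists, from an endometrial carcinoma line that the rule did not use, had 16 and 13.

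**Figure D2:**
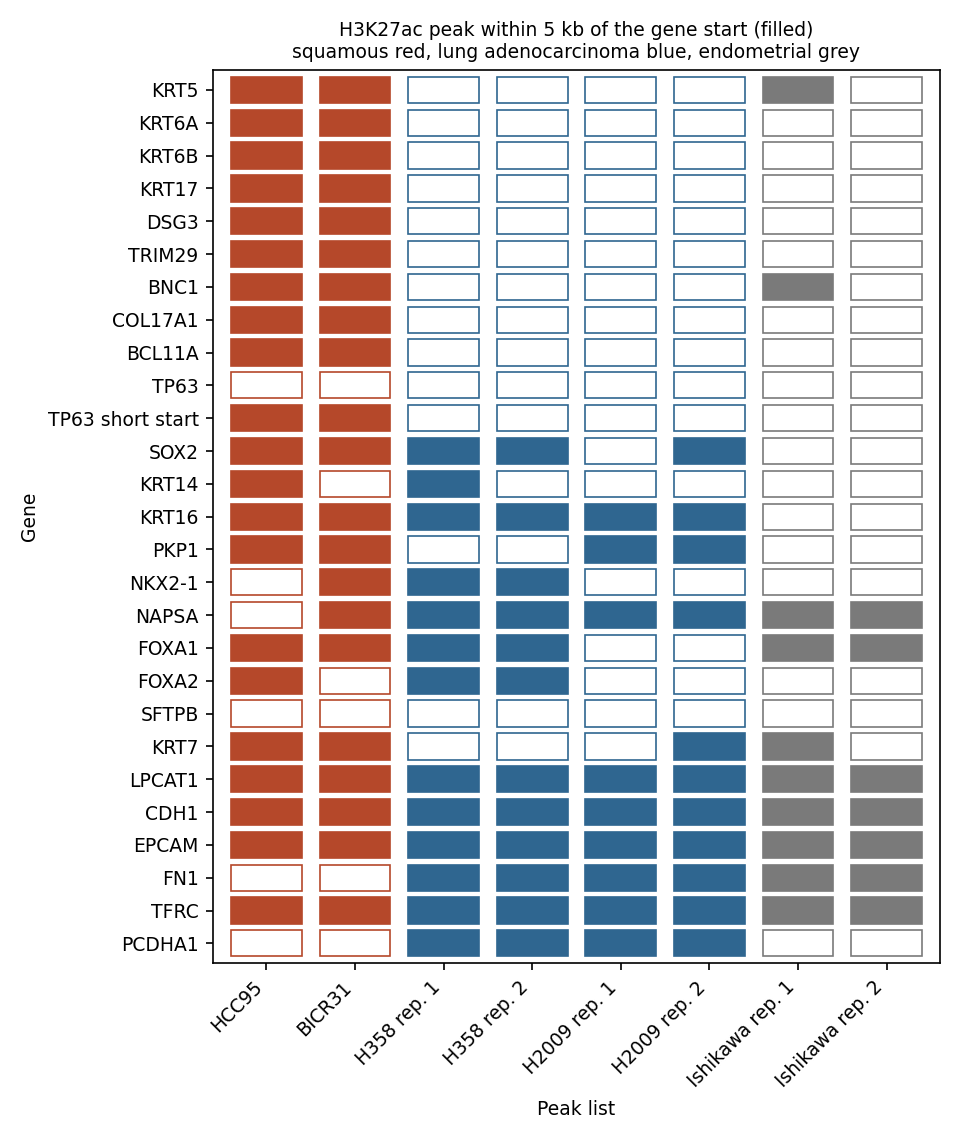
Presence (filled) or absence (open) of a peak within 5 kb of the start of named genes (y axis) in each list (x axis), squamous lists in red, lung adenocarcinoma lists in blue and endometrial lists in grey. The upper 9 genes are filled in both squamous lists and open in all 4 adenocarcinoma lists, while LPCAT1, CDH1, EPCAM and TFRC are filled in every list.

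The regions at these starts varied in width and strength. At KRT5 the region chr12:52913607-52916988 spanned 3382 bp, with a fold enrichment of 2.25 in HCC95 and 2.55 in BICR31, and it also had a peak in Ishikawa replicate 1. At KRT17 the region chr17:39779379-39782557 spanned 3179 bp, with 2.54 in HCC95 and 2.72 in BICR31. At DSG3 it was chr18:29026168-29028291, with 3.17 and 3.56 in the same order. COL17A1 had chr10:105844925-105846638, with 3.20 and 3.71. These folds are the authors' values for a broad peak. Within its list the KRT5 region stood at percentile 0.530 in HCC95 and 1.14 in BICR31 by fold, and the DSG3 region at 14.3 and 35.6. The region at KRT6B, chr12:52845247-52845848, was narrower, at 602 bp, and stronger, at percentiles 86.9 and 67.5.

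The keratin clusters and TRIM29 held several squamous-set regions each. Within 50 kb of their starts, 10 of the 31 squamous and basal genes had at least 2 regions of the squamous set and none had a region of the adenocarcinoma set. Of all 100 kb tiles that held a region, 1.97% had 2 or more of the former and 0.171% had 2 or more of the latter. KRT6A had 5, KRT5, KRT6B, KRT16, KRT17 and TRIM29 had 4 each, KRT14, PKP1 and BNC1 had 3, and BCL11A had 2. Neighbouring keratin windows share regions, so these counts overlap. Counted once, the 31 windows held 192 regions, 32 of them in the squamous set (16.7%), with a median of 1 per gene. The windows of the 32 listed adenocarcinoma genes held 176 regions, 6 of them in the squamous set (3.41%), and those of the housekeeping genes 92 with 5 (5.43%). The median was 0 per gene in both.

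TRIM29, a gene expressed in basal cells, had no region in its window outside the squamous set. All 4 regions within 50 kb of its start had a peak in both squamous lists, and none had one in H358, H2009 or Ishikawa. The widest of them, chr11:119991677-119993459, had folds of 3.28 in HCC95 and 2.94 in BICR31, and the strongest, chr11:120039519-120040412, had 4.34 and 5.22. The squamous set held 2 regions there with lists of equal length and 1 in the upper 50% of each list. With BICR31 counted as adenocarcinoma it held 0, which is fixed because all 4 regions have a BICR31 peak. KRT5 had 7 regions in its window, with peaks of HCC95 in 6, of BICR31 in 5, of all 4 adenocarcinoma lists in 0 and of Ishikawa replicate 1 in 1. PKP1, a desmosomal plaque protein, had 12, with HCC95 in 10, BICR31 in 7, H358 in 4 and 3, and H2009 in 3 and 4. Some keratin genes of a cluster are near copies of each other. No source used here says how reads that match several of them were placed, so peaks within those clusters are uncertain in position.

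These counts changed with the threshold on peaks. In the upper 50% of each list by the authors' −log10 q, only 1 of the 31 genes, PKP1, had 2 or more squamous-set regions, with 3. The number of starts with the squamous pattern fell from 9 to 1. With lists of equal length the numbers were 8 genes and 7 starts. With BICR31 counted as adenocarcinoma, so that the set required HCC95 and none of the other 5 lists, the numbers were 9 genes and 0 starts. Those 9 genes do not all belong to the 10, since KRT6B and TRIM29 then had 0 regions and BNC1 had 1. The 9 starts with the squamous pattern all had a BICR31 peak, so none of them could count in that setting. With BICR31 left out the numbers were 17 genes and 9 starts.

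The defining transcription factor genes were less clear cut than the keratins. TP63 encodes p63, and basal cells use its inner start, for the short form. At that start, added after the data were seen, the region chr3:189507983-189510578 had peaks in both squamous lists and in no other list used here. The outer start had no peak in any list. Over the locus, 22 regions were found, 6 in the squamous set and 0 in the adenocarcinoma set. HCC95 had peaks in 16 of them, BICR31 in 13, H358 in 6 and 2, H2009 in 2 and 3, and both Ishikawa lists in 3. Squamous lists were thus above every other list. The widest squamous-set region of the locus, chr3:189616715-189620978, spanned 4264 bp and was the second widest of the whole set. By fold the 6 squamous-set regions stood low in HCC95, at percentiles 0.0875 to 8.62 within that list. In BICR31 they stood at 1.10 to 29.9. The region at the inner start stood at 2.91 in HCC95 and 1.73 in BICR31. SOX2 did not separate the types: the region at its start, chr3:181428697-181431143, had a peak in both squamous lists, both H358 lists and H2009 replicate 2.

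No listed adenocarcinoma gene had the mirror pattern at its start. Of 32 genes, 0 had a peak in all 4 adenocarcinoma lists and in neither squamous list, 5 had one in all 6 lists, 11 in none of them, and the other 16 were mixed. Over all 10 kb tiles that held a region, 1.05% had the mirror pattern. Per list, HCC95 had a peak at 12 of the 32 starts, BICR31 at 18, H358 at 16 and 16, and H2009 at 10 and 10. The Ishikawa lists had 15 and 16. BICR31 thus had more of these starts than any adenocarcinoma list, and HCC95 more than H2009. BICR31 also had the most peaks and called bases of the 6 lists, at 41161 and 39.8 Mb. The part of list length in this order was not tested. NKX2-1, the lineage factor of lung epithelium, had a peak at its start in both H358 lists and in BICR31, and none in H2009 or HCC95. NAPSA, an aspartic protease of alveolar cells, had one in all 4 adenocarcinoma lists, in BICR31 and in both Ishikawa lists, and none in HCC95. FOXA1 had one in both H358 lists, in both squamous lists and in both Ishikawa lists, and FOXA2 in both H358 lists and HCC95. Both factors had none in H2009. The surfactant genes SFTPB, SFTPA1, SFTPC and SFTPD had none in any of the 6 lists. H358 therefore carried more of the defining adenocarcinoma markers than H2009, and BICR31 carried peaks at NKX2-1 and NAPSA beside those at the basal keratins.

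The windows of the 32 listed adenocarcinoma genes held 5 regions of the adenocarcinoma set among 176 (2.84%), beside 0.958% of all regions and 0 of 192 in the windows of the squamous and basal genes. Of the 5, 4 were around LPCAT1 and 1 around TMPRSS2. LPCAT1 encodes an enzyme that makes surfactant phospholipid. Its start lay in a region common to all 6 lists, and the adenocarcinoma-set regions lay beyond it, at chr5:1546450-1547265, chr5:1555932-1556726, chr5:1563232-1564181 and chr5:1565013-1565390. Of the 12 regions in its window HCC95 had a peak in 1, BICR31 in 4, H358 in 6 and 6, and H2009 in 11 and 9. With lists of equal length, or in the upper 50% of each list, the window held 2 adenocarcinoma-set regions, and with BICR31 counted as adenocarcinoma 0. KRT7, a keratin of simple epithelium that is listed with the adenocarcinoma genes, went the other way, with 3 squamous-set regions, among them chr12:52623424-52625767 at its start.

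FN1, which encodes fibronectin, was the 1 listed mesenchymal gene of 5 with the adenocarcinoma pattern at its start. Over all 10 kb tiles that held a region, 1.05% had this pattern. FN1 is named for it and falls outside the naming rule. The region chr2:216300259-216300835 had folds of 6.56 and 5.16 in H358 and of 4.45 and 5.70 in H2009. Neither squamous list had a peak there, and Ishikawa replicate 2 had one. Within 5 kb of the start both Ishikawa lists had a peak. VIM, ZEB1, COL1A1 and TWIST1 did not have that pattern.

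Squamous-set regions were densest in the 1 Mb windows that hold CD44, the type II keratins and MYC. The 1 Mb window with most of them ran from 35 to 36 Mb of chromosome 11 and held 15 among its 65 regions. In that window 23.1% of the regions were in the squamous set, beside 4.93% of all regions. CD44, a surface receptor for hyaluronan that basal cells carry, lies there. HCC95 had peaks in 52 of the 65 regions, BICR31 in 33, H358 in 7 and 4, and H2009 in 12 and 14. At the start of CD44 itself the region chr11:35160023-35161827 had a peak in all 6 lists, and a squamous-set region followed at chr11:35165038-35168203. The window from 52 to 53 Mb of chromosome 12, with the type II keratins, held 13 among 57. The 1 Mb window of chromosome 8 with MYC, a growth regulator, held 11 among 51. Only 3 squamous-set regions lay within 50 kb of the CD44 start and 2 within 50 kb of the MYC start. The windows are thus named for a gene in them, and most of their squamous-set regions lie farther from it. Windows of 10 each were found at 34 to 35 Mb of chromosome 11 (the epithelial ETS factors EHF and ELF5), 39 to 40 Mb of chromosome 17 (the type I keratins) and 49 to 50 Mb of chromosome 20 (the polarity gene PARD6B). In each of these 6 windows both squamous lists had peaks in more regions than any adenocarcinoma list, an order that the choice of the windows in part fixes. The order of the windows changed with the setting, and the set was formed anew in each. In the order given here, the 6 windows held 8, 4, 1, 6, 3 and 5 regions of the set in the upper 50% of each list, and 4, 11, 5, 4, 5 and 9 with lists of equal length. They held 27, 3, 4, 12, 8 and 2 with BICR31 counted as adenocarcinoma, and 42, 16, 15, 22, 18 and 13 with BICR31 left out.

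**Figure D3:**
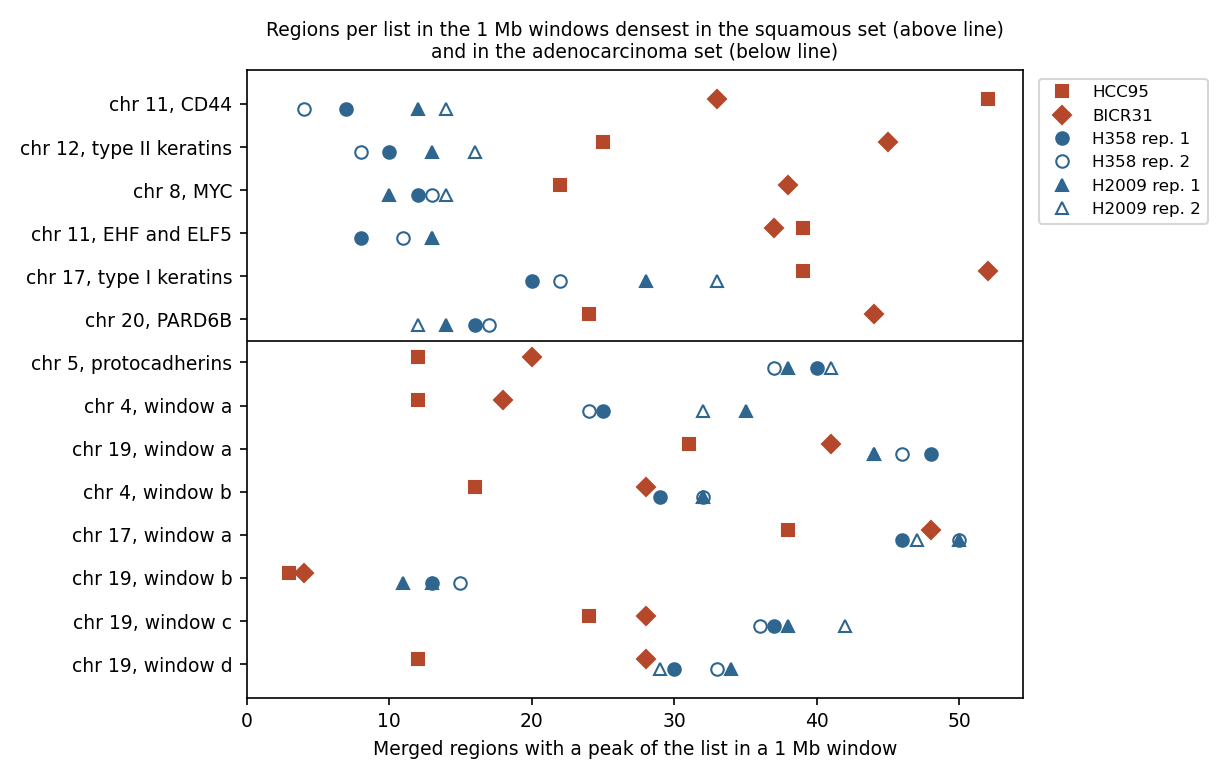
Number of merged regions with a peak of each list (x axis) in the 1 Mb windows with most squamous-set regions (above the line) and most adenocarcinoma-set regions (below it), squamous lists in red and lung adenocarcinoma lists in blue, with open symbols for replicate 2. Windows a and b of chromosome 4 start at 0 and 1 Mb, windows a to d of chromosome 19 at 58, 20, 44 and 53 Mb, and that of chromosome 17 at 73 Mb. In the CD44 window the squamous lists reached 52 and 33 regions against 4 to 14, and in the protocadherin window 12 and 20 against 37 to 41.

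The receptor gene EGFR showed a common start with squamous-set regions beyond it. The region at its start, chr7:55086708-55089991, had a peak in all 6 lists and in both Ishikawa lists. Squamous-set regions followed at chr7:55110938-55112744 and chr7:55120272-55122793. MYC was alike, with a common region at its start and 2 squamous-set regions within 50 kb. Both genes were added after the data were seen.

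The widest and the strongest squamous-set regions were different regions. The 5 widest ran from 3975 to 4353 bp. The widest, chr19:13261314-13265666, covered the immediate early gene IER2, and chr3:193851556-193855530 covered the start of HES1, a target of Notch signalling. IER2 also had peaks in both Ishikawa lists there, and HES1 in Ishikawa replicate 2. The region that stood highest by its lower fold percentile, chr9:114557143-114558100, had folds of 5.93 in HCC95 (percentile 98.4) and 6.50 in BICR31 (98.4). Next came chr12:4713981-4714668, with 5.67 and 7.70, and chr7:110352612-110353041, with 6.03 and 6.02. Of the 10 regions ranked highest in this way, 3 also had peaks in both Ishikawa lists.

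Adenocarcinoma-set regions were densest in the protocadherin clusters of chromosome 5. The window from 140 to 141 Mb held 14 of them among 66 regions (21.2%, beside 0.958% of all regions). H358 had peaks in 40 and 37 of the 66, H2009 in 38 and 41, BICR31 in 20 and HCC95 in 12, so the types did not overlap, in a window chosen for that set. Within 1 kb of the 13 protocadherin alpha starts, HCC95 and BICR31 had peaks at 0. H358 had them at 11 and 9, H2009 at 13 and 13, and each Ishikawa list at 2. The adenocarcinoma set covered 9 of the starts, those of PCDHA1, PCDHA2, PCDHA3, PCDHA4, PCDHA5, PCDHA7, PCDHA8, PCDHA10 and PCDHA12. PCDHA6 and PCDHA9 had peaks in both H2009 lists alone, and PCDHA11 and PCDHA13 in these and in H358 replicate 1. The region at PCDHA3, chr5:140180667-140181236, had folds of 9.09 and 7.82 in H358 and of 8.83 and 6.94 in H2009, with percentiles from 85.1 to 97.2 within those lists. With lists of equal length the window held 12 such regions, with 500 bp peaks 14, and in the upper 50% of each list 6. With BICR31 counted as adenocarcinoma it held 1, and with BICR31 left out 16. The protocadherin first exons resemble each other, and the same uncertainty on reads that match several places holds for them.

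Chromosome 19 carried a large share of the adenocarcinoma set. It held 70 of the 598 regions (11.7%) and 3.96% of all regions, so 2.84% of its regions were in the set beside 0.958% of all regions. Chromosome 1 also held 70, but among 6020 regions. Of the squamous set, chromosome 19 held 2.76%. The next densest windows of the adenocarcinoma set were 0 to 1 Mb of chromosome 4 and 58 to 59 Mb of chromosome 19, with 7 each, and 1 to 2 Mb of chromosome 4, with 6. Windows of 5 each lay at 73 to 74 Mb of chromosome 17 and at 20 to 21, 44 to 45 and 53 to 54 Mb of chromosome 19. These parts of chromosome 19 are known for clusters of KRAB zinc finger genes, which encode transcriptional repressors. With BICR31 counted as adenocarcinoma, the windows of chromosome 19 at 58, 20, 44 and 53 Mb held 3, 0, 2 and 7 such regions, those of chromosome 4 held 2 and 3, and that of chromosome 17 held 5. With BICR31 left out, those of chromosome 19 held 10, 5, 7 and 11, those of chromosome 4 held 9 and 10, and that of chromosome 17 held 10. At 20 to 21 Mb, HCC95 had peaks in 3 of 21 regions and BICR31 in 4, against 13 and 15 in H358 and 11 and 13 in H2009. Among the 10 adenocarcinoma-set regions ranked highest by fold, 4 were on chromosome 19, for example chr19:58446120-58446816 with folds of 7.92 and 11.2 in H358 and 9.16 and 9.13 in H2009.

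Squamous-set regions were spread more evenly. They made up 6.63% of the regions of chromosome 7, 6.60% of chromosome 20, 6.27% of chromosome 12, 6.13% of chromosome 10 and 6.08% of chromosome 18. The lowest shares were 3.44% on chromosome 19 and 3.45% on chromosome 4. The chromosome with the lowest share for this set was therefore the one with the highest share for the other. Copy number differs between cancer lines and was not measured here, and its part in these shares was not tested.

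**Figure D4:**
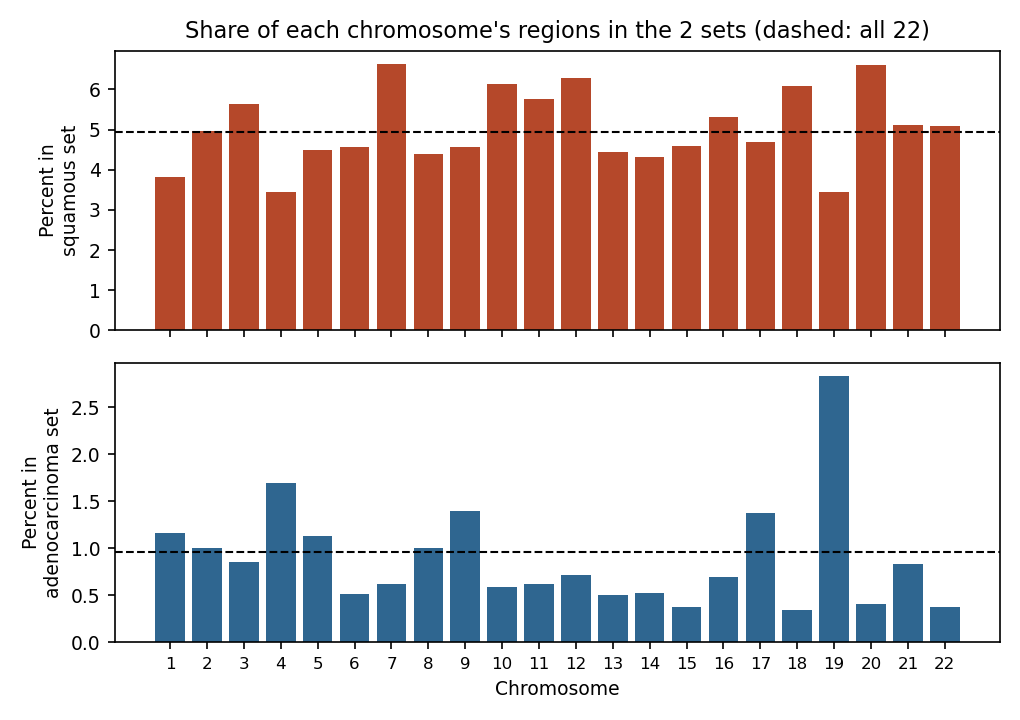
Share of the regions of each chromosome that are in the squamous set (upper bars, red) and in the adenocarcinoma set (lower bars, blue), in percent, with dashed lines at 4.93% and 0.958% for all chromosomes used. Chromosome 19 has the tallest blue bar, at 2.84%, and the shortest red one, at 3.44%.

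Lists that the rule did not use gave a further view of both sets. Either Ishikawa list had a peak in 603 of the 3078 squamous-set regions (19.6%, 95% Wilson interval 18.2 to 21.03). It had one in 254 of the 598 adenocarcinoma-set regions (42.5%, 38.6 to 46.5). It also had one in 94.5% of the regions common to all 6 lists and in 31.1% of all regions. The intervals cover counting error only, and regions are not replicates of a tumour type. Among regions 500 to 1000 bp wide the shares were 20.05% and 42.9%, and among regions 1000 to 2000 bp wide 19.4% and 51.8%, in the same order. The order and size of the difference changed with the lists required. With H2009 left out the shares were 24.5% of the squamous set and 28.7% of the adenocarcinoma set. With H358 left out they were 28.0% and 26.6%, and the order was reversed. It was also reversed, at 56.2% and 43.7%, where each of the 6 lists had to cover 50% of a region to count. An adenocarcinoma peak that covered less then counted as absent, so the squamous set of that setting can hold adenocarcinoma peaks. An Ishikawa peak counted there at any overlap. With 1 list per line the shares were 24.1% and 33.6% for replicate 1, and 23.5% and 34.4% for replicate 2.

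**Figure D5:**
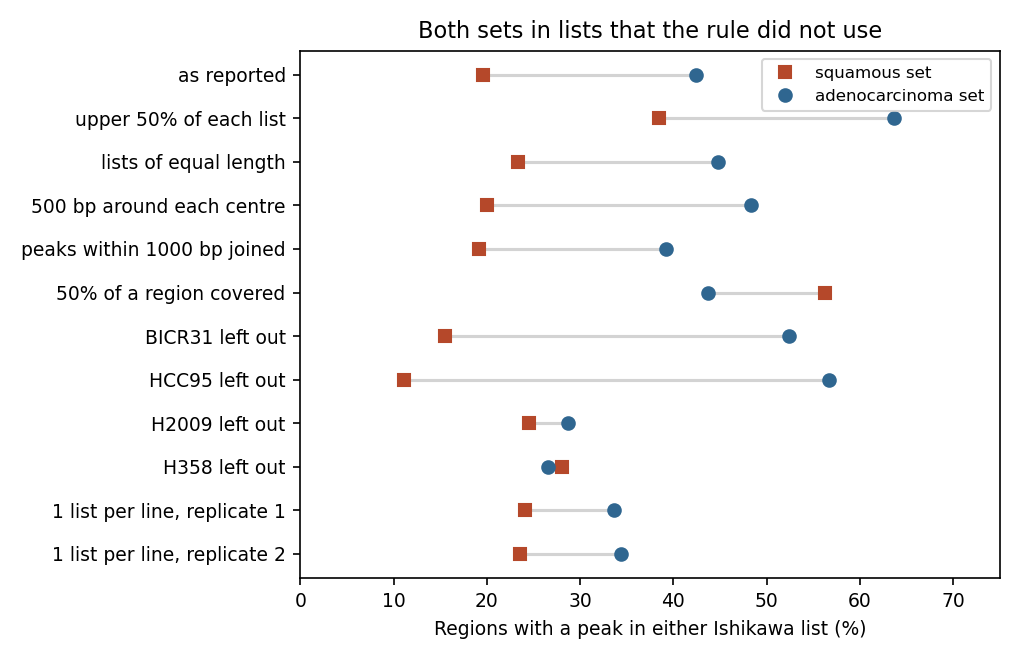
Percent of the squamous set (red squares) and of the adenocarcinoma set (blue circles) with a peak in either Ishikawa list (x axis), as reported and under other settings (y axis). The adenocarcinoma set is at 42.5% and the squamous set at 19.6% as reported, and the order is reversed with H358 left out and where a list had to cover 50% of a region.

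The 4 further H2009 lists (Empty, Control, e3KRAB1 and e3KRAB2) come from vector-carrying H2009 cells, while the rule used unmodified H2009 cells. Effects of the vectors on these shares were not tested. The lists were short, with 1349 to 3204 peaks. Any of them had a peak in 77 adenocarcinoma-set regions (12.9%, 95% Wilson interval 10.4 to 15.8) and in 20 squamous-set regions (0.650%, 0.421 to 1.002). The shares were 41.9% of the common regions and 8.45% of all regions. The adenocarcinoma share exceeded the squamous one in each of these lists, for example 6.02% against 0.357% in Control. The rule in part fixes this order, since it asks for H2009 peaks in the adenocarcinoma set and for none in the squamous set. With H2009 left out of the rule the shares were 4.68% of the adenocarcinoma set and 2.61% of the squamous set. Most adenocarcinoma-set regions thus had no peak in these short H2009 lists.

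The median distance to the next region of the same set was 141 kb in the squamous set and 770 kb in the adenocarcinoma set, which has fewer members. The median distance to the next region common to all 6 lists was 88.8 kb for the squamous set, 64.2 kb for the adenocarcinoma set and 78.3 kb for all regions. Within 10 kb of such a common region lay 7.28% of the squamous set and 9.03% of the adenocarcinoma set, against 8.47% of all regions.

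Motifs in the promoters of the listed genes were counted beside all promoters. The AP-1 motif, spelled TGANTCA and palindromic, stood in 5 of 20 squamous and basal genes with a promoter in the table (CLCA2, PERP, S100A2, SERPINB5 and SFN), in 4 of 20 adenocarcinoma genes and in 6.57% of all promoters. The motif of FOX factors, spelled TGTTTAC, stood in 1 and 3 genes and in 2.98% of all promoters. That of GATA factors, spelled AGATAA, stood in 2 and 4 genes and in 9.17%. That of TEAD factors, spelled GGAATG, stood in 1 and 1 and in 11.9%. All were searched on both strands. The searched form of the p53-family half-site stood in 2 squamous and basal genes, COL17A1 and KRT5, and in 1 adenocarcinoma gene, KRT8. Genes are counted once over all their promoters, so these numbers are not the same quantity as the share of all promoters. Overlaps between motifs were not removed, and a match is a description only.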

How the data were processed

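H3K27ac ChIP-seq peak lists of 6 libraries were compared, with 6 further lists of the series beside them. Reads were aligned with BWA to hg19, per the submitters' processing notes. The peak caller, its settings, the control and any pooling of samples are not given in the sources at hand, and each list was taken as that of 1 sample. In the broadPeak and narrowPeak lists the authors deposited, per peak, a score and a fold enrichment ratio, and beside these the −log10 of both the p-value and the q-value. The deposited narrowPeak lists also give the summit's offset, which is of another (other) unit and went unused, and each deposited Ishikawa peak has 1 score. Peak lists hold no reads, so the depth is unknown. Whether replicates came from separate cultures is not stated, so the spread between them may be technical.

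Peaks of chromosomes 1 to 22 were kept, which left out 4730 of 173135 deposited peaks (2.73%). Overlaps of at least 1 bp were merged with own code in Python 3.11.15 (numpy 2.4.6, pandas 2.3.3, scipy 1.17.1), tested on simulated lists. The 95% intervals of shares are Wilson's and hold counting error alone. Agreement of lists was tested by exact permutation. Gene starts were placed on hg19 from general knowledge, since the gene table at hand is on GRCh38.p14. All 103 genes were on the same chromosome in that table, and their order was the same on 19 of 20 chromosomes.

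Named genes had at least 2 regions of a set within 50 kb or were defining markers. Regions were named as the 10 highest by their lowest fold percentile, the 5 widest, and the densest 1 Mb windows. Other genes named in the text fall outside this rule, and some of them are given as added. The members and lists were chosen with earlier results of these data known. Alternatives were other thresholds, widths, overlaps and joining distances, lists or lines left out, and BICR31 taken as adenocarcinoma. Some items are not reported here.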

Additional observations from a re-analysis of the deposited data

Results flagged for a closer look

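Of 47 values over the 4 adenocarcinoma lists, 8 had 1 list apart from the other 3 by a gap test at the 95% level. That level stands for about 1 of 20 groups of continuous values. In all 8 the other 3 lists tie, which the test always flags, so this rate does not hold for them. Most are small counts, and 7 of them are given here. From 1 to 2 Mb of chromosome 4, H358 replicate 1 had peaks in 29 regions and the other lists in 32 each. Around EGFR, H358 replicate 1 had a peak in 1 region and the others in 3 each. H2009 replicate 1 had a peak at 16 housekeeping starts and the others at 17. Around KRT6B and around BCL11A, H2009 replicate 2 had a peak in 1 region and the others in 0. Around KRT14, H358 replicate 1 had 3 and the others 2, and around TFRC, a housekeeping gene, it had 2 and the others 1.

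Chromosome X was outside the comparison. It held 48 regions in both squamous lists and no adenocarcinoma list, and 13 with the mirror pattern, among 1702 regions (2.82% and 0.764%).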

How the results depend on the processing

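The squamous set of 3078 regions held 1115 in the upper 50% of each list, 1774 with lists of equal length and 5060 where a list had to cover 50% of a region. In the last of these settings an adenocarcinoma peak that covered less counted as absent. The squamous set held 8198 with BICR31 left out, 19931 with HCC95 left out, 4869 with BICR31 taken as adenocarcinoma, and 3338 to 3470 without 1 adenocarcinoma replicate. The adenocarcinoma set of 598 held 286 in the upper 50%, 1052 with 500 bp peaks, 318 with 50% covered, 1903 without BICR31, 904 without HCC95, 1246 with BICR31 as adenocarcinoma, 2056 without H358 and 2224 without H2009. It held 1271 and 1296 with 1 list per line and 779 to 827 without 1 replicate.

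The Ishikawa share of the adenocarcinoma set minus that of the squamous set, 22.9 points as reported, was 28.3 with 500 bp peaks, -12.5 with 50% covered, 36.9 without BICR31, 45.5 without HCC95, 41.3 with BICR31 as adenocarcinoma, -1.49 without H358 and 4.14 without H2009. It was 9.51 and 10.9 with 1 list per line and 16.01 to 18.3 without 1 replicate. The same difference for the further H2009 lists, 12.2 points, was 27.5 in the upper 50%, 16.7 with equal length, 16.2 with 500 bp, 1.20 with 50% covered, 19.95 without BICR31, 24.9 with BICR31 as adenocarcinoma, 7.29 without H358, 2.07 without H2009, and 6.94 and 6.87 with 1 list per line. The 10 squamous genes with 2 or more regions of their set numbered 1 in the upper 50%, 17 without BICR31, 24 without HCC95 and 23 within 200 kb. The causes were not tested. The Jaccard difference of 0.153 kept its sign, from 0.0560 to 0.194.

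No paired analysis was possible because the squamous lists carry no replicate numbers and the counts come from no test. Depth was unknown, so the absence of a peak sets no upper limit on the signal of a region.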
